A study of Mus musculus with 4 samples.

Results

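The 10 genes described here encode the Fc gamma receptors of the mouse (Fcgr1, Fcgr2b, Fcgr3 and Fcgr4), the signalling adaptors Fcer1g and Tyrobp, the adaptor-coupled receptor Trem2, the kinase Syk and the inhibitory receptors Cd33 and Pirb. They were taken by symbol from the 24411 genes of the deposited count tables, and each of the 10 was found and had enough reads to be tested. The cells were BV2, a mouse microglial line kept as an immortalised culture, and their RNA was sequenced with strand kept. All 4 libraries carry the genotype label Pu.1 KO, made with CRISPR-Cas9. Of these, 2 libraries were untreated and 2 received 10 ng/ml lipopolysaccharide (LPS), a bacterial cell wall component sensed by TLR4. The labels disagree on the exposure, with 4 h in the titles and 2 h in the source names. No wild-type library enters the comparison, so every value below is from cells labelled as lacking PU.1, and no effect of the knockout was measured. The labels do not say whether the line is a clone or a pool.

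Fc receptors bind the constant part of antibodies and couple antibody-coated targets to phagocytes. The activating receptors FcgRI (Fcgr1), FcgRIII (Fcgr3) and FcgRIV (Fcgr4) signal through the common gamma chain, encoded by Fcer1g, whereas TREM2, a lipid-sensing receptor of microglia, signals through DAP12, encoded by Tyrobp. Both adaptors carry an immunoreceptor tyrosine-based activation motif (ITAM), which is phosphorylated by Src family kinases and then recruits the kinase Syk. FcgRIIb (Fcgr2b), the sialic acid receptor CD33 and the paired immunoglobulin-like receptor PIR-B (Pirb) carry inhibitory tyrosine motifs (ITIM), which recruit phosphatases that oppose this signal. PU.1, encoded by Spi1, is a transcription factor known to drive many myeloid receptor genes.

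Gene counts totalled 3256197 to 4502105 per library. Spi1 transcript was present at 161 and 164 CPM untreated and at 258 and 291 CPM after LPS, and gene counts of this kind do not test whether the edited gene still makes protein. Of the 13 microglia and macrophage markers found, the abundant ones included Lyz2 (1006 to 2560 CPM) and Cd68, whereas Aif1 (1.33 to 4.16 CPM), P2ry12 (0 to 2.29 CPM) and Cx3cr1 (2.21 to 10.0 CPM) were low. The list summed to 3599 and 3616 CPM untreated and 6927 and 7363 CPM after LPS, and its part in the results below was not tested. Of its 12 tested genes 9 rose and 2 fell, beside 26.6% higher and 25.3% lower over all tested genes. Aif1 and Cx3cr1, counted among those that rose, had enough reads to be tested only with their LPS libraries, which favours rises. The 2 that fell, named after their values were seen, were Tmem119 (16.1 and 22.1 CPM untreated, 4.85 and 6.07 CPM after LPS) and Csf1r (log2 fold change -0.21). Other cells that carry Fc receptors were looked for by their markers. All 7 NK cell, 5 T cell and 6 mast cell markers had 0 counts in every library, the 5 B cell markers summed to at most 0.304 CPM and the 5 neutrophil markers found summed to at most 1.55 CPM. In bulk RNA, fewer cells of a type and less RNA per cell cannot be told apart.

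LPS raised 8 of the 10 genes and lowered 0 of them, and Fcer1g and Trem2 did not pass the test (edgeR quasi-likelihood test, Benjamini-Hochberg adjusted p below 0.05 over 9992 tested genes). Over all tested genes 51.9% were called, 26.6% higher and 25.3% lower. At an unadjusted p below 0.05, 0 of the 10 were lower with edgeR and 0 with DESeq2. DESeq2 also called 8 of the 10 higher, where it called 18.4% of all tested genes higher and 14.9% lower. With offsets corrected for GC content 9 of the 10 were higher, beside 24.6% of tested genes higher and 24.8% lower. The median log2 fold change of the 10 was 1.47, against 0.000629 over all tested genes. A rise of at least 4-fold was measured for 5 of them, Fcgr4, Pirb, Syk, Fcgr2b and Fcgr1, a size that 3.85% of tested genes reached. Pirb, counted in the 8 and in the 5, could be tested only through its LPS libraries, so only a rise could be seen for it. Its fold was 3.94 without untreated replicate 1. The untreated and LPS values did not overlap for any of the 10, with LPS above for 9 and below for 1. Over all tested genes 75.1% did not overlap, 37.5% with LPS above and 37.6% with LPS below. Under library-size scaling, which leaves out TMM, the median over all tested genes moved to -0.36. Under that scaling 7 of the 10 were higher and Trem2 was lower, beside 13.8% of all tested genes higher and 47.8% lower.

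**Figure D1:**
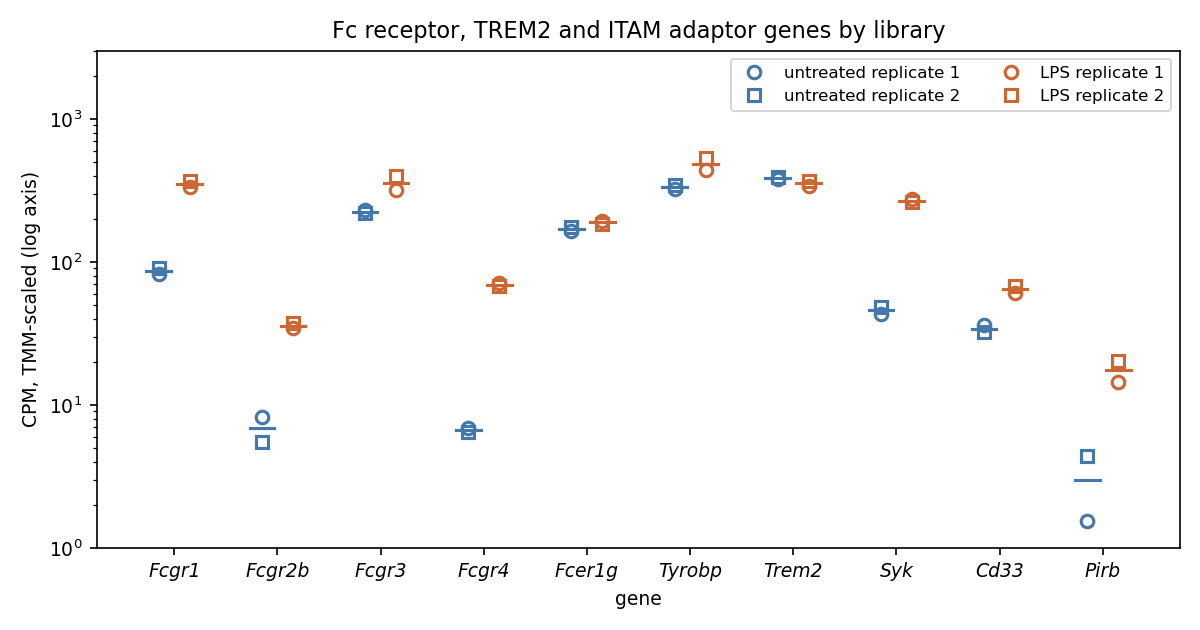
CPM of the 10 genes on a log axis, with a circle for replicate 1, a square for replicate 2 and a bar for the mean of the 2 libraries of a group, untreated in blue and LPS in orange. Fcgr4, Syk, Fcgr2b, Fcgr1 and Pirb show wide gaps between the groups, while Fcer1g and Trem2 lie close together.

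Of the activating Fc gamma receptors, the 3 genes responded by very different amounts. Fcgr1, the high-affinity receptor for monomeric IgG, stood at 81.9 and 90.9 CPM in the untreated libraries and at 335 and 367 CPM after LPS. Both LPS values were far above both untreated values, and the fold was 4.07 (log2 fold change 2.03, SE 0.10, edgeR adjusted p = 6.9e-24). Fcgr4, a receptor of intermediate affinity, went from 6.88 and 6.41 CPM to 71.4 and 67.4 CPM. Each pair of libraries agreed closely, and Fcgr4 had the largest rise of the 10 at 10.4-fold (log2 fold change 3.37, SE 0.17, edgeR adjusted p = 1.8e-22). Fcgr3, a low-affinity receptor for immune complexes, was already at 230 and 218 CPM and reached 316 and 397 CPM. It rose 1.59-fold (log2 fold change 0.67, SE 0.09, edgeR adjusted p = 8.9e-08), and the LPS libraries lay further apart than the untreated ones.

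The stretches of 250 bases before the transcription start of these 3 genes, from RefSeq (GRCm38.p6), are shown because the genes differ so much in response. The windows of 300 bases (250 before and 50 after each start) of 9 of the 10 genes, 11 windows in all, were searched on both strands for GAGGAA, the core of PU.1 sites, for an interferon-response and ETS-IRF type motif (GAAA, any 2 bases, GAAA), for TTCNNNGAA, the STAT element, and for a kappaB form (GGG, any 2 bases, TTTCC). No overlap between motifs was removed. Capitals mark every match, some of them on the reverse strand.
Fcgr1, chr3:96293970-96294219, minus strand: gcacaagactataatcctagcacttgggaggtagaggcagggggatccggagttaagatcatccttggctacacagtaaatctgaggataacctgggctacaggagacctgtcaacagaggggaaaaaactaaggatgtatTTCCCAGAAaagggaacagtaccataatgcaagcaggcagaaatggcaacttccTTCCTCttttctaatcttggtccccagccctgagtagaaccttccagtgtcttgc
Fcgr4, chr1:171018676-171018925, plus strand: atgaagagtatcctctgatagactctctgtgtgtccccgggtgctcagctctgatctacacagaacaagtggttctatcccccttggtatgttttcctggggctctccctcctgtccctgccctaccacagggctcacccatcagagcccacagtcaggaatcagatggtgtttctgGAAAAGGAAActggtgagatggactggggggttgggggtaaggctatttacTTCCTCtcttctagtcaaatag
Fcgr3, chr1:171059404-171059653, minus strand: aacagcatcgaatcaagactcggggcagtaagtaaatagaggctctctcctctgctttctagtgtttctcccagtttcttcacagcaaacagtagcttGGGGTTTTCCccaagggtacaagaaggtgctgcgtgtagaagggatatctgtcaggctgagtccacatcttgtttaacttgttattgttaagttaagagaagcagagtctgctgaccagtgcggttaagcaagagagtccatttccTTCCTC

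GAGGAA was present in all 3, 55 bases before the start in Fcgr1, 22 in Fcgr4 and 6 in Fcgr3 (15 from the other start that RefSeq gives for Fcgr3), each time as TTCCTC on the printed strand. Among the 3, TTCNNNGAA was matched only in Fcgr1, the ETS-IRF type motif only in Fcgr4 and the kappaB form only in Fcgr3, and none of these 3 motifs was matched in the windows of the other 6 genes. Over all 32851 RefSeq windows GAGGAA was held by 28.3%, TTCNNNGAA by 8.3%, the ETS-IRF type motif by 3.44% and the kappaB form by 1.63%. Of the 9 genes searched 7 had GAGGAA in a window, against 31.3% of all genes, and Fcgr2b, described next, had none of the 4 motifs. A match is a run of letters and not a measured site, and binding was not measured.

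Fcgr2b, the inhibitory Fc gamma receptor, rose as well. It was at 8.22 and 5.53 CPM untreated (43 and 25 reads) and at 34.3 and 37.3 CPM after LPS (99 and 123 reads), 5.14-fold higher (log2 fold change 2.36, SE 0.20, edgeR adjusted p = 4.8e-14). Both LPS libraries were well above the untreated ones, which differed among themselves. Of the 100-base stretches of its transcript 3.54% also occur in another gene's transcript, Fcgr3 among them, and reads from such stretches may be lost or split.

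The make-up of Fc gamma receptor reads shifted between the groups. Fcgr3 held 70.4% (95% Wilson interval 68.2 to 72.5) and 68.0% (65.5 to 70.3) of the reads on the 4 genes in the untreated libraries. After LPS its share was 41.8% (39.7 to 43.9) and 45.7% (43.9 to 47.6). Fcgr1 went from 25.0% (23.0 to 27.1) and 28.3% (26.0 to 30.7) to 44.3% (42.2 to 46.3) and 42.2% (40.4 to 44.0). The 2 receptors thus took about equal shares of reads after LPS, where Fcgr3 had held most before. Fcgr4 went from 2.10% (1.52 to 2.90) and 2.00% (1.39 to 2.85) to 9.43% (8.27 to 10.7) and 7.75% (6.83 to 8.79). Fcgr2b, the inhibitory one, went from 2.51% (1.87 to 3.37) and 1.72% (1.17 to 2.53) to 4.53% (3.74 to 5.49) and 4.30% (3.61 to 5.10). These intervals cover counting error only, and the genes differ in length, so a share of reads is not a share of transcripts.

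**Figure D2:**
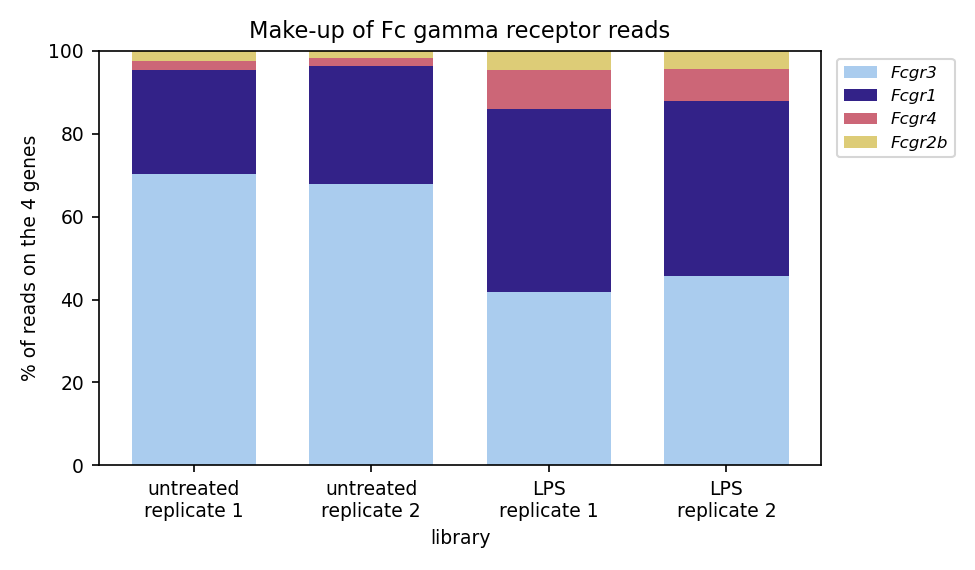
Share of the reads on Fcgr1, Fcgr2b, Fcgr3 and Fcgr4 that fell on each gene, in percent, for each of the 4 libraries. Fcgr3 takes 68.0% to 70.4% in the untreated and 41.8% to 45.7% in the LPS libraries, and the shares of Fcgr1, Fcgr4 and Fcgr2b are larger after LPS.

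Ratios of 2 genes within a library do not depend on a scaling factor per library, though a GC correction, which differs by gene, can move them. With 2 libraries against 2 an exact permutation test cannot give a p below 0.33, so they are given as values. The count ratio of Fcgr3 to Fcgr2b was 28.0 and 39.5 untreated and 9.22 and 10.6 after LPS, a log2 difference of -1.75. The ratio of Fcgr4 to Fcgr2b was 0.837 and 1.16 untreated and 2.08 and 1.8 after LPS, a log2 difference of 0.98. Against the inhibitory receptor, 1 activating receptor was thus lower and another higher after LPS. The ratio of Fcgr1 to Fcgr2b was 9.95 and 16.4 untreated and 9.77 and 9.83 after LPS. Its log2 difference of -0.38 was close to the pooled SD between libraries of 0.36, and it was -0.02 without untreated replicate 2 and -0.75 without untreated replicate 1.

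**Figure D3:**
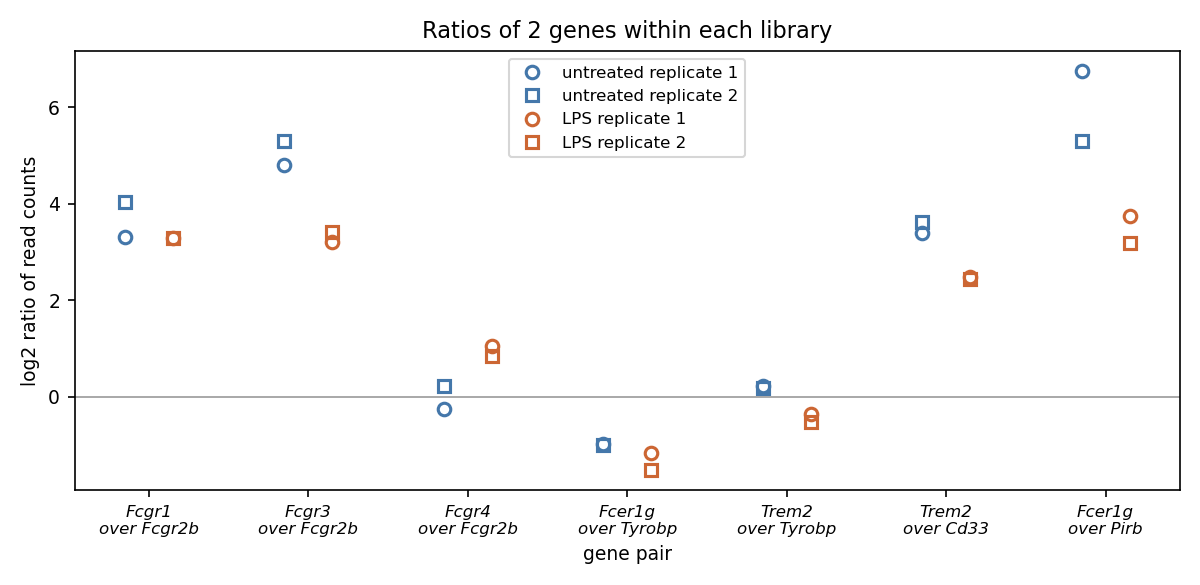
Log2 ratio of read counts of 2 genes within each library, with circles for replicate 1 and squares for replicate 2, untreated in blue and LPS in orange. The Fcgr4 to Fcgr2b ratio is higher after LPS, and the Trem2 to Tyrobp and Trem2 to Cd33 ratios are lower.

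The adaptors moved little. Tyrobp, which encodes DAP12, was at 325 and 347 CPM untreated and at 438 and 530 CPM after LPS. It rose 1.44-fold (log2 fold change 0.53, SE 0.09, edgeR adjusted p = 2.2e-06), a call that was lost under library-size scaling (log2 fold change 0.17, adjusted p = 0.123). Fcer1g, the gamma chain shared by the activating Fc receptors, was at 165 and 174 CPM untreated and at 195 and 185 CPM after LPS. Its groups did not overlap but lay close together, and its log2 fold change of 0.16 (95% interval -0.02 to 0.35, edgeR adjusted p = 0.13) did not pass the test. The direction of Fcer1g turned to -0.19 under library-size scaling (adjusted p = 0.108), and it passed with offsets corrected for GC content (log2 fold change 0.26, adjusted p = 0.01). The count ratio of Fcer1g to Tyrobp was 0.508 and 0.502 untreated and 0.445 and 0.350 after LPS, a log2 difference of -0.36, which was -0.18 without LPS replicate 2 and -0.53 without LPS replicate 1.

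Trem2 did not follow the Fc receptors. It was at 379 and 396 CPM untreated and at 340 and 370 CPM after LPS, which made it the 1 gene of the 10 with both LPS values under both untreated values. Its log2 fold change of -0.12 (95% interval -0.29 to 0.05, edgeR adjusted p = 0.22) did not pass the test. Its call and its direction rested on the scaling, since it was lower under library-size scaling (log2 fold change -0.48, adjusted p = 6.39e-06) and by the upper quartile (-0.22, adjusted p = 0.0237), and turned to 0.15 with GC-corrected offsets (adjusted p = 0.1). Ratios to other genes do not rest on a scaling factor. There were 1.17 and 1.14 Trem2 reads per Tyrobp read untreated and 0.777 and 0.698 after LPS, a log2 difference of -0.65 with a pooled SD of 0.08. Against Cd33, an inhibitory receptor studied beside TREM2 in microglia, the ratio went from 10.5 and 12.3 to 5.61 and 5.42, a log2 difference of -1.04 with a pooled SD of 0.11. GC-corrected offsets brought Trem2 and Cd33 closer, with log2 fold changes of 0.15 and 0.62, and gave 0.72 for Tyrobp.

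The 250 bases before the starts of Trem2 and Fcer1g, the genes that did not pass the test, are printed beside those of the activating Fc receptors above. Capitals again mark matches. Trem2 had GAGGAA 40 bases before its start, as TTCCTC on the printed strand, and Fcer1g had none of the 4 motifs in its window.
Trem2, chr17:48346151-48346400, plus strand: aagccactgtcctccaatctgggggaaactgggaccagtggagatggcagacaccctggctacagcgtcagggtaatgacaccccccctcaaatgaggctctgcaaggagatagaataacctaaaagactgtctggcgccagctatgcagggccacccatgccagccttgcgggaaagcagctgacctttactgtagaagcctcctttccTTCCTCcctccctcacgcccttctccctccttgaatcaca
Fcer1g, chr1:171234350-171234599, minus strand: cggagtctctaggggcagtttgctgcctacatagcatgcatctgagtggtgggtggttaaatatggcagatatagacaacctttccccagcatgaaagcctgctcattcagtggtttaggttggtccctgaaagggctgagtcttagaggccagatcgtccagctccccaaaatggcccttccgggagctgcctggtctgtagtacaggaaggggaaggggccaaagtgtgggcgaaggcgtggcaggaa

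Syk, the kinase that binds the phosphorylated ITAM, had one of the clearest rises. It was at 43.0 and 48.7 CPM untreated and at 274 and 262 CPM after LPS, 5.85-fold higher (edgeR adjusted p = 1.4e-26, log2 fold change 2.55, SE 0.10). The 2 values of each group were close, and the rise passed under all 15 alternative settings, with log2 fold changes of 2.19 to 2.70. Of its 2 RefSeq start windows 1 held GAGGAA, 9 bases before the start.

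Both remaining inhibitory receptors rose. Cd33 was at 36.1 and 32.3 CPM untreated and at 60.6 and 68.3 CPM after LPS, 1.88-fold higher (log2 fold change 0.91, SE 0.13, edgeR adjusted p = 6e-08). Pirb was barely counted without LPS, with 8 and 20 reads, and had 42 and 67 reads after LPS. In CPM that was 1.53 and 4.42 against 14.6 and 20.3, a 6.05-fold rise (edgeR adjusted p = 2.7e-08, log2 fold change 2.60, SE 0.32). The Pirb fold was 3.94 without untreated replicate 1 and 11.2 without untreated replicate 2, so its size is poorly fixed at this depth. Pirb passed the read filter only through its LPS libraries. Pirb is also the member whose reads are least certain, as 24.6% of the 100-base stretches of its transcript occur in other genes, among them Pira2 and Lilra6. The count ratio of Fcer1g to Pirb was 108 and 39.5 untreated and 13.4 and 9.12 after LPS, a log2 difference of -2.56, or -1.84 without untreated replicate 1 and -3.29 without untreated replicate 2.

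**Figure D4:**
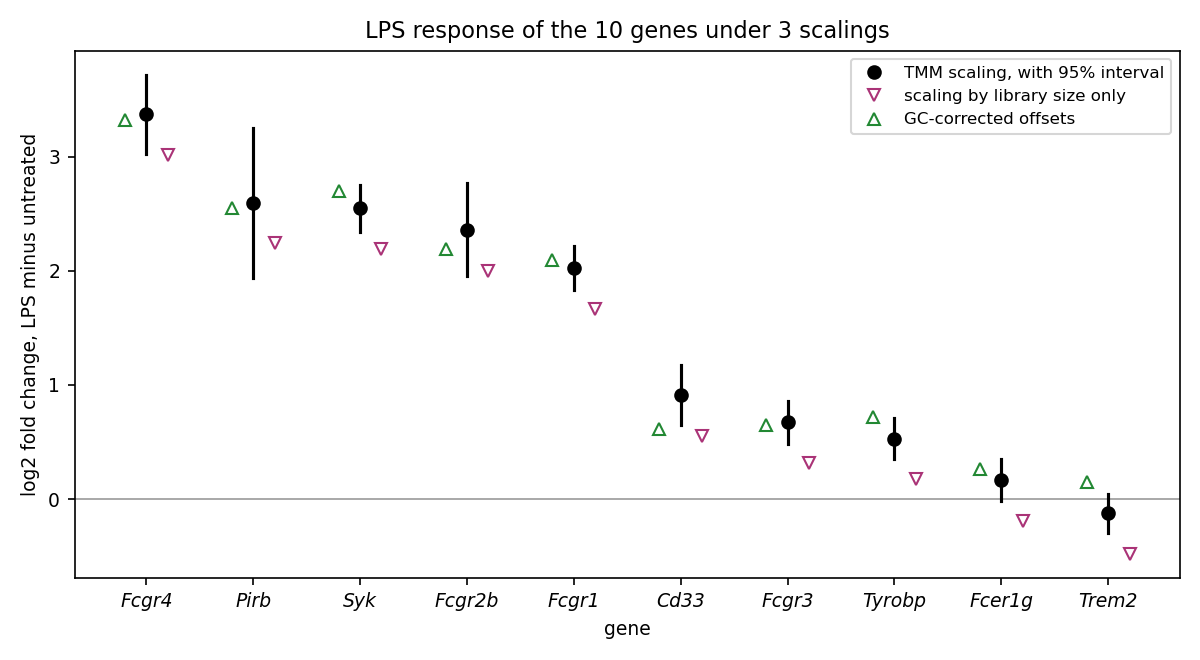
Log2 fold change (LPS minus untreated) of each gene with its 95% interval under TMM scaling (black), beside the values under library-size scaling (downward triangles) and with GC-corrected offsets (upward triangles). The 5 largest rises stay at 1.67 or above in all cases shown, while Trem2 lies on either side of 0.

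Levels of different genes can be compared only per length, here as CPM per kilobase of the longest transcript paired with a curated RefSeq entry. On that scale Tyrobp was the highest in every library, at 576 and 616 untreated and 777 and 940 after LPS. Trem2 came second in every library, at 349 and 364 untreated and 313 and 340 after LPS. Fcer1g (245 and 259) and then Fcgr3 (171 and 162) followed in both untreated libraries. After LPS these 2 were not separated, with Fcer1g at 289 and 275 and Fcgr3 at 235 and 295. Fcgr1 came next throughout, at 31.6 and 35.1 untreated and 129 and 142 after LPS. Below it the order changed, since Fcgr4 (5.48 and 5.11) stood under Syk (8.02 and 9.07) and Cd33 (6.31 and 5.64) without LPS and above both after it, at 56.8 and 53.7 against 51.1 and 48.8 for Syk and 10.6 and 11.9 for Cd33. Fcgr2b (1.56 to 2.32 untreated, 9.68 and 10.5 after LPS) and Pirb (0.400 to 1.16 and 3.81 to 5.32) were the lowest in every library. After LPS, Cd33 and Fcgr2b differed by little more than their own spread. Untreated Fcgr4 rests on 36 and 29 reads, so its place against Cd33 there is not firm. Fcgr4 and Syk also lay close after LPS. All these orders depend on the transcript length chosen for each gene.

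The genes around these receptors in the pathway were followed through 7 lists with 125 further genes, of which 87 could be tested, 43 rose and 22 fell. Under library-size scaling the split was 34 higher and 31 lower. The median log2 fold change was 0.33. Over all tested genes the shares were 26.6% higher and 25.3% lower, so the count of genes that fell is near that background. Under library-size scaling the shares were 13.8% and 47.8%, and the genes that fell were fewer than that background. The lists were not tested against each other. Genes with few untreated reads could pass the read filter only through their LPS reads, which favours rises in the counts of every list.

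All 9 tested genes of other receptors listed as signalling through DAP12 or the gamma chain rose (0 lower with edgeR or DESeq2, also at an unadjusted p below 0.05), and 8 did with DESeq2 or library-size scaling. Over all tested genes 26.6% were higher and 25.3% lower. With DESeq2 these shares were 18.4% and 14.9%, and under library-size scaling 13.8% and 47.8%. The list had a median log2 fold change of 1.70. A further 13 of the 22 found had too few reads to be tested. Pilrb1 (3 and 1 reads untreated, 19 and 26 after LPS) and Pilrb2 could be tested only through their LPS reads. Only a rise could be seen for them. Clec4e, which encodes Mincle, a gamma chain-coupled receptor for mycobacterial and fungal lipids, rose from 11.5 and 8.18 CPM to 597 and 637 CPM (log2 fold change 5.95). Clec5a, a DAP12-coupled lectin receptor, rose from 45.1 and 38.9 to 242 and 247 CPM (2.53), and Clec7a, the beta-glucan receptor dectin-1, which carries its own Syk-binding motif, from 54.1 and 41.1 to 122 and 138 CPM (1.44). Pilrb2 had 1 and 0 reads untreated against 20 and 28 after LPS, 75.7 times as many per scaled library (exact 95% bounds 13.0 and 3053). Exact bounds, here and below, are from the summed reads of each group and cover counting error only. The fitted fold of Pilrb2 was 58.2, or 34.6 without untreated replicate 2 and 222 without untreated replicate 1, which left no untreated read.

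Of 10 tested inhibitory ITIM receptor genes 7 rose and 2 fell, beside 26.6% higher and 25.3% lower over all tested genes. The median log2 fold change of the list was 2.33. Lilrb4a, a leukocyte immunoglobulin-like receptor, rose from 116 and 114 to 797 and 884 CPM (log2 fold change 2.87), and Lair1, a collagen receptor, from 24.3 and 20.1 to 98.1 and 109 CPM (2.22). Pilra rose from 0.574 and 1.77 to 33.6 and 40.4 CPM (5.00, or 4.36 without untreated replicate 1 and 5.93 without untreated replicate 2). Clec12a had 2 and 1 reads untreated and 109 and 94 after LPS, 107 times as many (exact 95% bounds 36.0 and 522). Clec12a, Pilra and also Cd72 could be tested only through their LPS reads, so only a rise could be seen for them. The 2 that fell, named after their values were seen, were Sirpa, the receptor for CD47 (log2 fold change -0.34), and Cd300a (-0.66).

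Of 5 tested genes of other Fc receptors and Fc receptor-like proteins 2 rose and 1 fell, beside 26.6% higher and 25.3% lower over all tested genes. The 8 others had 0 reads. The genes that rose, Trim21 and Fcrlb, could be tested only through their LPS reads, so only a rise could be seen for them. Trim21, a cytosolic antibody receptor, rose from 1.72 and 1.33 to 25.3 and 19.7 CPM (log2 fold change 3.84). Fcrlb had 2 and 0 reads untreated and 11 and 21 after LPS, 25.2 times as many (exact 95% bounds 6.44 and 217), and it could not be tested without LPS replicate 2. The fitted fold of Fcrlb was 22.0, or 12.4 without untreated replicate 2 and 148 without untreated replicate 1, which left no untreated read. Fcgrt, which encodes the neonatal Fc receptor, fell from 10.3 and 9.73 to 5.20 and 6.07 CPM (log2 fold change -0.82, edgeR adjusted p = 0.015). The Fcgrt call was lost without untreated replicate 1 (adjusted p = 0.0828), without LPS replicate 1 (0.0774), with GC-corrected offsets (0.0725) and with DESeq2 (0.186), with log2 fold changes of -0.78, -0.72, -0.62 and -0.83 in that order.

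**Figure D5:**
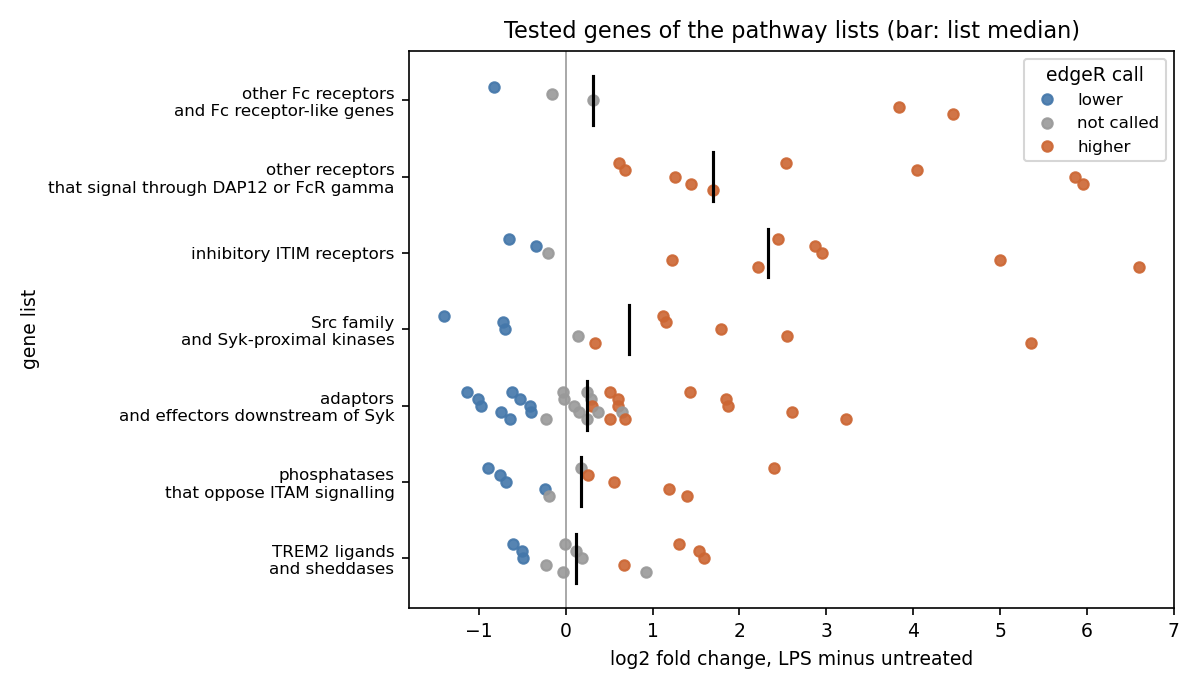
Log2 fold change (LPS minus untreated) of each tested gene in the 7 pathway lists, orange where higher, blue where lower and grey where the edgeR test was not passed, with a bar at the median of each list. All 9 tested genes listed as receptors that signal through DAP12 or the gamma chain lie to the right of 0. They include Clec7a, which carries its own Syk-binding motif. Each of the other 6 lists has genes on both sides.

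Of 10 tested Src family and Syk-proximal kinase genes 6 rose and 3 fell, with a median log2 fold change of 0.73. Syk, already counted among the members, is 1 of those that rose. Over all tested genes 26.6% were higher and 25.3% lower, so the count of kinase genes that fell is near that share. Lyn, the Src family kinase that phosphorylates ITAMs and ITIMs in macrophages, rose from 58.9 and 62.4 to 134 and 130 CPM (log2 fold change 1.12). Src rose from 3 and 1 reads to 57 and 54 (5.35, or 6.13 without untreated replicate 1), and Ptk2b, which encodes Pyk2, from 29.8 and 28.3 to 66.9 and 62.5 CPM (1.15). Src could be tested only through its LPS reads. So could Lck, another of those that rose, with 14 and 5 reads untreated and 21 and 21 after LPS. Only a rise could be seen for Src and Lck, and Lck is named after its values were seen. Csk, the kinase that holds Src family kinases inactive, fell from 45.5 and 44.5 to 17.0 and 17.0 CPM (-1.40). Btk and Ptk2 were the other two that fell (-0.69 and -0.73) and are named after their values were seen.

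Of 30 tested adaptors and effectors downstream of Syk 11 rose and 9 fell, with a median log2 fold change of 0.24. Under library-size scaling 6 were higher and 12 lower. Both pairs of counts are near the shares over all tested genes given above, so the list is not set apart by them. Lcp2, which encodes the adaptor SLP-76, rose from 64.3 and 61.5 to 376 and 390 CPM (log2 fold change 2.60). Pik3ap1, a PI3K adaptor, rose from 49.7 and 49.3 to 194 and 163 CPM (1.85), and Malt1, a protease of the CARD9 signalling complex, from 46.5 and 40.7 to 169 and 150 CPM (1.87). Rasgrp3, a Ras activator, fell from 200 and 203 to 102 and 99.0 CPM (a fold of 0.498). Lat, 1 of those that rose, had 4 and 5 reads untreated and 29 and 26 after LPS. It could be tested only through its LPS reads and is named after its values were seen.

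Of 11 tested phosphatases and docking proteins that oppose ITAM signalling 5 rose and 4 fell, beside 26.6% higher and 25.3% lower over all tested genes. The median log2 fold change of the list was 0.18. The receptor phosphatases Ptprj (CD148) and Ptprc (CD45) rose, with log2 fold changes of 2.40 and 1.39. Both phosphatases are also known to activate Src family kinases. Inpp5d, which encodes SHIP-1, the lipid phosphatase recruited by FcgRIIb, fell from 287 and 290 to 156 and 155 CPM (-0.89), and Inppl1, its relative SHIP-2, fell by 0.76 on the log2 scale. With DESeq2 and with GC-corrected offsets 2 of the list were lower, and under library-size scaling 3 were higher and 5 lower, beside 14.9% (DESeq2), 24.8% (GC-corrected) and 47.8% (library size) of all tested genes lower.

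Of 13 tested TREM2 ligand and sheddase genes 4 rose and 3 fell, with a median log2 fold change of 0.12, near the 26.6% higher and 25.3% lower over all tested genes. Under library-size scaling 7 were lower, near the 47.8% over all tested genes. Apoe, a lipoprotein that binds TREM2, was the most abundant at 2648 and 2873 CPM untreated and 2844 and 3162 CPM after LPS, with a log2 fold change of 0.12 that did not pass (edgeR adjusted p = 0.2). Adam17, a protease that releases the TREM2 ectodomain, rose from 81.9 and 82.5 to 264 and 231 CPM (log2 fold change 1.59), and its partner Rhbdf2 (iRhom2) from 32.9 and 35.4 to 80.1 and 88.0 CPM (2.47-fold). Lgals3, which encodes galectin-3, rose from 491 and 494 to 1339 and 1516 CPM (1.54). Adam10, another sheddase, had a log2 fold change of -0.03 and did not pass the test. The 3 that fell were the gamma-secretase subunit genes Aph1a (-0.61), Ncstn (-0.51) and Psenen (-0.49). Apoe, Adam10, Ncstn and Psenen are named after their values were seen.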

How the data were processed

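The authors deposited raw counts of reads for every gene, in 3 columns per library (unstranded, forward strand, reverse strand), with no normalisation. The submitters' processing notes list hg19, a human build, although organism and symbols are mouse, and the tools STAR 2.5.1, Trimmomatic 0.33, DESeq2 and CASAVA 1.8.2. No source used here names the annotation. Per the labels' protocols, RNA was depleted of ribosomal RNA and libraries were strand-specific. The reverse-strand column, 78.7 to 95.3 times the forward one, was used. The 4 summary lines (67.2% to 72.9% of all reads) stayed out, as did all steps before counting. The extraction text speaks of hMSCs.

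Low genes were removed with filterByExpr, libraries scaled by TMM (factors 0.880 to 1.16) and tested with edgeR 4.0.16 in R 4.3.3 (robust quasi-likelihood, two-sided, with treatment alone in the design), with Benjamini-Hochberg adjusted p below 0.05. CPM is relative to the TMM-scaled library size. SEs were derived from the F statistic. Each gene has 2 residual degrees of freedom, and the fit borrows spread from all tested genes. An SE or p-value therefore does not rest on that gene's own replicate spread alone. The labels do not say that libraries came from separate cultures, so p-values measure only the spread between these libraries, which may be technical. Replicates were not duplicates, with chi-square per degree of freedom of 1.52 (untreated) and 2.44 (LPS). The members, lists and motifs were chosen with earlier results of these data known. All members are named, and of each list at most 4 changed genes, those of smallest p, with Spi1, the 3 nearest profiles of 3 members and, where said, genes picked after their values were seen. In simulated counts for this comparison, 73% of 2-fold and 100% of 4-fold changes were recovered, and 9 of 9681 unchanged genes were called. That simulation changed 100 genes at each fold, as many up as down, all well counted, with the same dispersion for every gene. In the data 51.9% of tested genes were called and many named genes had few untreated reads. The simulated rates therefore need not hold here.

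Length and GC content came from GENCODE vM21 (96.6% of tested genes matched). Alternatives were other scalings, DESeq2 1.42.0, other filters, unstranded counts, a replicate block, GC-corrected offsets, leaving out 5 abundant entries and leaving out each library. Promoter windows came from RefSeq GRCm38.p6, with none for Tyrobp, and protein sequences were not analysed here. Results for a few list and neighbouring genes are not reported here.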

Additional observations from a re-analysis of the deposited data

Results flagged for a closer look

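The forward-strand column, which no comparison above uses, holds opposite-strand reads. Over the 10 genes it held 12 reads in LPS replicate 1 and 38 in LPS replicate 2, against 5 and 5 in the untreated libraries, and so stood above the untreated level. That was 0.20% and 0.498% of their stranded reads after LPS and 0.0748% and 0.0834% untreated, where the whole column held 1.04% to 1.26% of stranded gene reads. Tyrobp (3 and 10 reads) and Fcgr1 (4 and 8) had the most after LPS. Of the LPS libraries, replicate 2 was the higher for each of the 10 genes.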

How the results depend on the processing

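With scaling by library size alone 1379 genes were higher and 4778 lower, and with DESeq2 1486 were lower, against 2659 higher and 2527 lower. Of the 10 genes, 1 (Trem2) was lower with scaling by library size alone and with the upper quartile. Fcer1g had a log2 fold change of -0.19 under library-size scaling, and Trem2 one of 0.15 with GC-corrected offsets, also with a replicate block added (0.15). The cause was not tested. Fcgr1, Fcgr2b, Fcgr3, Fcgr4, Syk, Cd33 and Pirb kept direction and call under all 15 alternatives. With the replicate block alone 8 of the 10 were higher and 0 lower, and Trem2 had a log2 fold change of -0.13 (edgeR adjusted p = 0.224), and over all genes 2658 were higher and 2513 lower. Same-numbered libraries of the groups had nearly uncorrelated deviations across genes (correlation -0.0435). With 2 libraries in a group this cannot show whether they were paired. The make-up of Fc gamma receptor reads was recomputed from unstranded counts and without each library (alternatives chosen after seeing the data). It moved by less than the spread between libraries. With 2 libraries in a group, leaving 1 out always moves the group mean by less than the gap between them. The values without a library are therefore no test of stability. For Fcgr3 the difference of -25.4 percentage points ranged from -27.4 to -23.5. Depth limits Pirb, Fcgr2b and Fcgr4 most, with 8 to 43 untreated reads.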

Other observations

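Fcgr2b, Fcgr4 and Fcgr3 follow each other without another protein-coding gene between them in RefSeq's order on chromosome 1, and their log2 fold changes were 2.36, 3.37 and 0.67. Past Fcgr3, Cfap126 was at 0 to 1.34 CPM and Sdhc, a respiratory chain gene, did not pass the test (-0.06). Around Trem2 lie other genes of its family. Treml2 and Treml4 rose (0.62 and 2.19), and so did the predicted gene B430306N03Rik, the direct neighbour of Trem2 (2.55, edgeR adjusted p = 1.3e-14). Treml4, at 1.91 and 1.33 CPM untreated, could be tested only through its LPS reads. On the other side of Trem2, Treml1 had too few reads to be tested (0.765 and 0.664 CPM untreated, 0 and 0.304 CPM after LPS), and Nfya and Oard1 did not pass (-0.20 and 0.0005). Hcst, next to Tyrobp and encoding the related adaptor DAP10, was at 1.72 and 3.10 CPM untreated and 2.77 and 4.55 CPM after LPS and did not pass (0.65). These are some of the 3 genes on each side of a member, picked after their values were seen. Among the others, Sema4d near Syk (2.49) and Txnip near Fcgr1 (1.87) rose, and Tomm40l near Fcer1g fell (-0.80).

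By distance between log2 CPM profiles centred over the 4 libraries (0.5 CPM added), the genes nearest to Tyrobp were Pttg1, Tpd52 and Lgals1 (0.026 to 0.037). Nearest to Fcer1g were Bod1, Nars and Hnrnpa0 (0.023 to 0.039), and nearest to Trem2 were Tmem14c, Sec61a1 and Zmym6 (0.013 to 0.026). Within a distance of 0.2 lay 347, 937 and 1034 genes, so 4 libraries hardly tell such profiles apart.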
